A study of Mus musculus with 14 samples.

Results

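The miR-132 and miR-212 cluster comprises 4 mature microRNAs (miRNAs), the 3p and 5p arms of the hairpins Mir132 and Mir212. All 4 names (mmu-miR-132-3p, mmu-miR-132-5p, mmu-miR-212-3p and mmu-miR-212-5p) were found by name among the 1695 of the count table. The cluster was chosen because miR-132-3p was higher in vesicles of 27HC-treated cells, so its own difference is given as a description without a test, and the question is whether its other arm and its cluster partner moved with it. The data are small RNA sequencing of small extracellular vesicles, particles shed by cells into their medium. The vesicles came from primary neutrophils, defined by the surface protein Ly6G, out of bone marrow from female BALB/c mice with no genetic change (wild type). The cells had received DMSO, the solvent, or 10 µM 27-hydroxycholesterol (27HC), a cholesterol metabolite, for 48 h, and each group held 7 libraries, numbered 1 to 7. The labels do not give the animals behind each library or the purity of the cells, so the spread between libraries may be partly technical. The miRNAs known for neutrophils and blood cells, miR-223-3p, miR-142a-3p and miR-142a-5p, were counted in all 14 libraries, with a summed level of 80919 to 213309 CPM (counts in every 1000000 of a library) with DMSO and 110333 to 145650 CPM with 27HC. Most of this was miR-223-3p, at a mean of 141706 CPM with DMSO and 118414 CPM with 27HC.

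Mature miRNAs are cut from a hairpin, and usually 1 arm, the guide, is loaded into Argonaute and represses messenger RNAs that pair with its seed, bases 2 to 8, while the other arm is mostly degraded. miR-132 and miR-212 are made from a shared primary transcript. They are best known from neurons, where the transcription factor CREB drives the transcript in response to activity, and miR-132 is also induced by bacterial lipopolysaccharide in monocytes and macrophages. In these cells it is known to dampen inflammatory signalling.

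The mature sequences are shown because the reading of both 3p arms depends on how far they can be told apart. They are RefSeq entries on build GRCm38.p6, matched by name for 4 of 4 members, with the seed in capitals.
miR-132-3p: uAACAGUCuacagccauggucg
miR-212-3p: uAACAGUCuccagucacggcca
miR-132-5p: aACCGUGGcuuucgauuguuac
miR-212-5p: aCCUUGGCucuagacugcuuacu
Both 3p arms carried the seed AACAGUC, and no other mouse mature miRNA in the RefSeq table did. Their first 9 bases were identical. Over their 22 bases they differed at 5 positions, A10C, C14U, U17C, U20C and G22A, counted from 1 at the 5′ end, with the miR-132-3p base first. A full-length read therefore separates them, while the authors' rule for shorter or mismatched reads is not given in the sources used here. The 5p arms had the seeds ACCGUGG and CCUUGGC, which no other entry shared.

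Both hairpins lie on the plus strand of chromosome 11 in GRCm38, Mir212 at 75173388 to 75173478 and Mir132 at 75173682 to 75173747, with 203 bases between them. In GENCODE M21 both fall in the first intron of the non-coding gene 1700016P03Rik (75172560 to 75177633), between exon 1, which ends at 75172597, and exon 2, which starts at 75173978. The hairpins are printed from RefSeq with both mature arms in capitals, to show the arms that were counted.
Mir212: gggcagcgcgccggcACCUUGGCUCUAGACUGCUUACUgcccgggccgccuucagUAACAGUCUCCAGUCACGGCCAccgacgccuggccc
Mir132: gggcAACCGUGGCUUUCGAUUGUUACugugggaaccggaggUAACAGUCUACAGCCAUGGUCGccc

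The cluster was represented in these vesicles almost wholly by miR-132-3p. Over all 14 libraries the 4 members had 426 of 3925790 counts, and 417 of these were miR-132-3p. miR-212-3p had 6 counts, miR-132-5p had 2 and miR-212-5p had 1. miR-132-3p made up 96.1% of the cluster's counts in DMSO libraries (exact Clopper-Pearson 95% interval 91.1 to 98.7%) and 98.7% in 27HC libraries (96.6 to 99.6%). These intervals, and those below, cover counting error only.

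**Figure D1:**
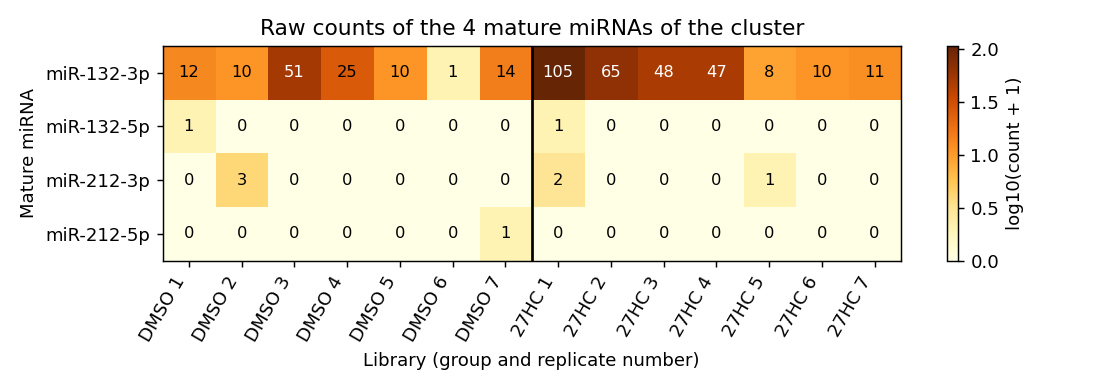
Raw counts of the 4 mature miRNAs (rows) in each library (columns, group and replicate number, DMSO left and 27HC right), with colour on a log10(count + 1) scale. miR-132-3p had counts in all 14 libraries, from 1 to 105, and the other 3 members had 9 counts together.

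miR-132-3p, the guide arm, was the only member that passed the filter on low counts. Its counts in DMSO replicates 1 to 7 were 12, 10, 51, 25, 10, 1 and 14, which correspond to 45.2, 33.4, 69.0, 69.1, 79.6, 5.65 and 46.6 CPM on library sizes scaled by the trimmed mean of M-values (TMM). Its counts in 27HC replicates 1 to 7 were 105, 65, 48, 47, 8, 10 and 11, or 246.5, 299.2, 237.7, 147.5, 63.6, 75.9 and 89.5 CPM. The groups overlapped, with 5 of the 7 libraries of the 27HC group higher than every DMSO library and 4 of the 7 DMSO libraries below the lowest 27HC library. Groups without overlap were found for 5.44% of the tested names, 2.09% with 27HC higher. The mean was 49.8 ± 25.4 CPM with DMSO and 165.7 ± 95 CPM with 27HC (SD, n = 7 each), a ratio of 3.33. In bulk libraries, a change in the number of vesicles that carry a miRNA and a change in its amount per vesicle cannot be told apart.

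The fitted log2 fold change of miR-132-3p was 1.74 (SE 0.43), the 4th highest among the 239 names tested, whose median was 0.010. Calls were made where the adjusted p of edgeR was under 0.05, which 12.6% of these names reached, 3.77% being higher with 27HC. Since miR-132-3p was chosen from this comparison, nothing is read from its place there. It was a scarce miRNA: by mean CPM it ranked 221st of the 239 in DMSO and 143rd in 27HC libraries. Its biological coefficient of variation, the fitted spread between libraries beyond counting error, was 0.51 against a median of 0.29 over the tested names.

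**Figure D2:**
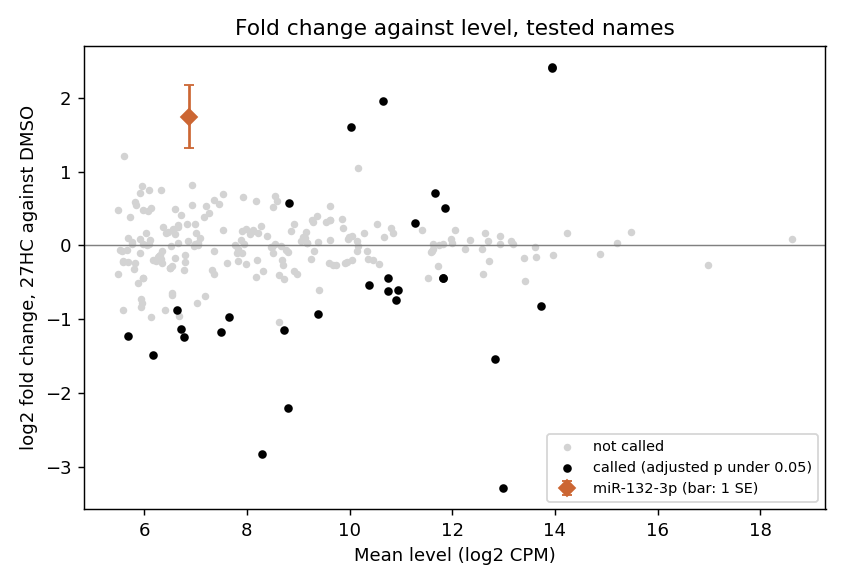
Log2 fold change of 27HC against DMSO (vertical) against mean level in log2 CPM (horizontal) for the 239 tested names, with called names in black and miR-132-3p as a diamond with its SE. miR-132-3p, chosen for its rise in this comparison, stands at 1.74.

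The values are also given for replicates 1 to 4 and 5 to 7 separately, because the libraries fell into these sets on a principal component of all tested names that took up 36.5% of the variance (scores up to 0.24 in the former and from 4.97 in the latter). Each set holds both treatments. What sets these libraries apart is not given in the labels. Within each treatment, replicates 5 to 7 also had the lower totals. With DMSO these were 112914 to 252014 counts against 265651 to 871189 in replicates 1 to 4. With 27HC they were 119852 to 127014 against 229324 to 405902. Depth and set therefore cannot be told apart, and the part of depth was not tested. In replicates 1 to 4 miR-132-3p stood at 33.4 to 69.1 CPM with DMSO and at 147.5 to 299.2 CPM with 27HC, so that all 4 libraries with 27HC lay above all 4 with DMSO. The share of all tested names without overlap in this set was not counted, so this is a description. The log2 fold change within this set was 2.13 (SE 0.31).

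In replicates 5 to 7 the groups overlapped. The DMSO libraries were at 5.65, 46.6 and 79.6 CPM and the 27HC libraries at 63.6, 75.9 and 89.5 CPM, and 1 of the 3 libraries of the 27HC group exceeded every DMSO library. The filter left miR-132-3p out of a fit on these 6 libraries. Without the filter, its log2 fold change there was 0.82 (SE 0.59), and without DMSO replicate 6, the library with 1 count, it was 0.27 (SE 0.64). The counts in this set were 1 to 14 per library, and the exact 95% Poisson intervals of single libraries were wide, for example 25.5 to 78.2 CPM in DMSO replicate 7 and 44.7 to 160.2 CPM in 27HC replicate 7.

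The fitted effect of 27HC in replicates 5 to 7 differed from that in replicates 1 to 4 by −1.21 on the log2 scale (SE 0.70). This difference was not tested, since it is made of the values by which miR-132-3p was chosen. The 5 values of the 27HC group above all DMSO values were those of replicates 1 to 4 and 7.

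**Figure D3:**
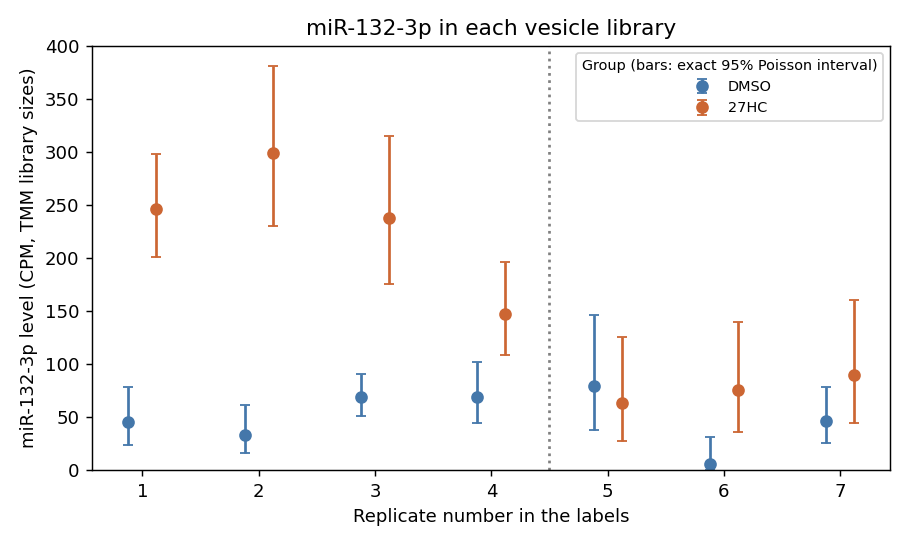
miR-132-3p level in CPM (vertical, from 0) by replicate number (horizontal) in DMSO and 27HC libraries, with exact 95% Poisson intervals as bars and a dotted line between replicates 4 and 5. In replicates 1 to 4 the 27HC points lie at 147.5 CPM or higher and the DMSO points at 69.1 CPM or lower, while the intervals of both groups overlap in replicates 5 and 7 and not in replicate 6, where DMSO had 1 count.

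miR-132-5p, the opposite arm of the same hairpin, was close to undetected. It had 1 count in DMSO replicate 1, 1 count in 27HC replicate 1 and 0 in the other 12 libraries. Pooled over libraries this was 0.441 CPM with DMSO (exact 95% Poisson interval 0.0112 to 2.46) and 0.648 CPM with 27HC (0.0164 to 3.61). Both groups were below 3 counts, about the one-sided 95% Poisson bound for a count of 0, so no fold change is given. miR-132-3p thus held 417 of the 419 counts of its hairpin, or 99.5% (exact Clopper-Pearson 95% interval 98.3 to 99.9%).

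Shares of this size were also found for other hairpins. Of the 169 hairpins with both arms in the table and at least 100 counts, 40 had a higher share in their leading arm, the median share was 97.5%, and 83 were led by the 3p arm. Among the 47 hairpins with 200 to 800 counts, 4 had a higher share than Mir132.

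miR-212-3p, the arm of the neighbouring hairpin that shares its seed with miR-132-3p, had 3 counts in DMSO replicate 2, 2 in 27HC replicate 1 and 1 in 27HC replicate 5. It had 0 counts in the other 11 libraries, including 27HC replicates 2 to 4, where miR-132-3p had 65, 48 and 47. Pooled levels were 1.32 CPM with DMSO (exact 95% Poisson interval 0.273 to 3.86) and 1.94 CPM with 27HC (0.401 to 5.68), and the intervals overlapped. The mean log2 CPM was 3.05 ± 0.47 with DMSO and 3.13 ± 0.44 with 27HC (SD, n = 7), a difference of 0.076 that was smaller than the spread. It had an exact two-sided permutation p of 1, but with 11 of the 14 libraries at 0 the smallest p that the 3432 splits of these values allow is 0.192. The test could not pass its threshold and says nothing about a change. The other scarce members had too few counts for it.

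A rise of miR-212-3p as large as that of miR-132-3p was not detectable at this depth. Moving the pooled DMSO level of miR-212-3p by 3.51, the ratio of the pooled levels of miR-132-3p, would give 4.64 CPM or 7.17 counts over the 27HC libraries. That value lies within the interval of the 3 counts observed. No fold change of miR-212-3p is given, since both groups stood at 3 counts.

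Both 3p arms were measured side by side in each library, and miR-212-3p took 2.38% of their counts in DMSO (3 of 126, exact Clopper-Pearson 95% interval 0.494 to 6.80%) and 1.01% in 27HC libraries (3 of 297, 0.209 to 2.92%). The intervals overlapped. The share was highest in DMSO replicate 2, where it was 3 of 13 counts or 23.1% (5.04 to 53.8%). It was 2 of 107 counts or 1.87% (0.227 to 6.59%) in 27HC replicate 1. In 27HC replicate 5 it was 1 of 9 counts or 11.1% (0.281 to 48.2%). Counts of different miRNAs depend on how well each is captured in the library, which is not known here.

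miR-212-5p was counted once, in DMSO replicate 7, and in none of the libraries with 27HC. The pooled level was 0.441 CPM in DMSO (exact 95% Poisson interval 0.0112 to 2.46). By the one-sided 95% bound, the count of 0 with 27HC allows about 3 counts, or 1.94 CPM. The upper end of its exact two-sided 95% Poisson interval was 2.39 CPM. In the edgeR fit of all 1695 names with at least 1 count, in which 1.59% were called, none of the 3 scarce members was called, with adjusted p-values of 0.975 for miR-132-5p, 0.967 for miR-212-3p and 0.623 for miR-212-5p. Over these 3 members there were 9 counts, 5 in DMSO and 4 in 27HC libraries, and a change with 27HC was not detectable at this depth.

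The tested names whose profile over the 14 libraries was most like that of miR-132-3p were found by the root mean square difference of log2 CPM, each name centred on its own mean. The 5 nearest were miR-5128 at 0.79, miR-7667-5p at 0.81, miR-92a-3p at 0.84, miR-181c-3p at 0.87 and miR-484 at 0.89, where the median over 238 names was 1.25. These distances were not small against the profile of miR-132-3p itself, which departed from its mean by 1.15.

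All 5 were higher on average with 27HC, and the measure takes in the treatment difference by which miR-132-3p was chosen, so this is a description. With DMSO and 27HC in turn, miR-7667-5p was at 657 ± 136 and 2556 ± 543 CPM, and miR-5128 at 513.7 ± 115 and 1553 ± 350 CPM (SD, n = 7). miR-181c-3p, the only one of the 5 as scarce as miR-132-3p, was at 40.1 ± 11.2 and 59.8 ± 10.99 CPM and did not pass the test (log2 fold change 0.59, edgeR adjusted p 0.119). Like miR-132-3p, these 5 had lower mean levels in 27HC replicates 5 to 7 than in 27HC replicates 1 to 4. For example, miR-5128 had 1259 against 1774 CPM, miR-92a-3p 3405 against 4498 CPM and miR-484 3428 against 4991 CPM. miR-132-3p had 76.4 against 232.7 CPM. The measure by which the 5 were found also takes in this drop, so sharing it is a description as well. In replicates 5 to 7 the groups did not overlap for miR-5128 (542 to 679 CPM with DMSO and 993 to 1432 CPM with 27HC), miR-7667-5p (499 to 604 and 1620 to 2554 CPM) and miR-92a-3p (2061 to 3025 and 3247 to 3596 CPM). They overlapped for miR-484 (2427 to 3141 and 3068 to 3700 CPM) and miR-181c-3p (22.6 to 55.7 and 47.7 to 68.3 CPM), as they did for miR-132-3p. The share of all tested names without overlap in replicates 5 to 7 was not counted. With so few libraries, nothing is read from which of these names overlapped.

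**Figure D4:**
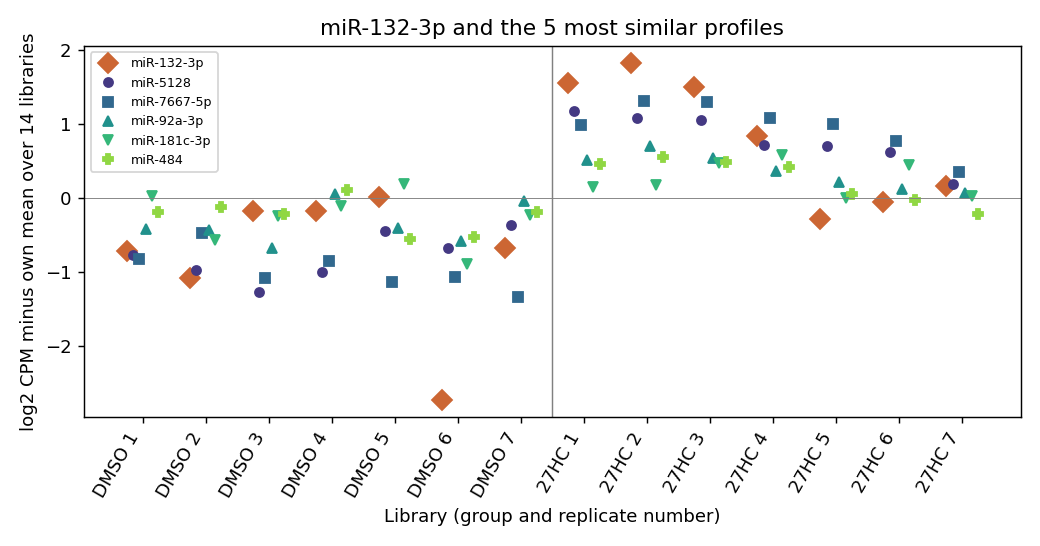
Log2 CPM minus each name's own mean (vertical) in the 14 libraries (horizontal, DMSO left and 27HC right) for miR-132-3p (diamonds) and the 5 most similar tested names. miR-132-3p falls lowest in DMSO replicate 6, on 1 count, and its 27HC values in replicates 5 to 7 lie near its own mean.

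Among miRNAs known to be induced by inflammatory stimuli in myeloid cells, miR-146a-5p and miR-155-5p fell with 27HC. Of 8 such names, 7 were in the table and 6 were tested. Of these, 2 were called lower by edgeR and 0 higher. Over all 239 tested names 30 (12.6%) were called, 9 of them (3.77%) higher and the rest lower. A count of 0 called higher among these 6 is therefore near the background. The median log2 fold change was −0.17 against 0.010 over all tested names. miR-146a-5p, a brake on Toll-like receptor signalling, fell from 17415 ± 1555 to 9877 ± 1194 CPM (log2 fold change −0.82, SE 0.093, edgeR adjusted p 5.38e-06), with no overlap between the groups. miR-155-5p, which promotes inflammatory responses, fell from 90.7 ± 43.7 to 33.8 ± 22.9 CPM (log2 fold change −1.48, SE 0.40, edgeR adjusted p 0.0216), with 4 of the 7 values of the 27HC group below every DMSO value. The highest fold change in the list was that of miR-9-5p, at 0.65 (SE 0.38), which was not called (edgeR adjusted p 0.347). Nor were miR-146b-5p, miR-147-3p and miR-21a-5p, with log2 fold changes of −0.25, −0.096 and −0.020. miR-187-3p had 4 counts and was not tested.

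Neuronal miRNAs were examined because the cluster is abundant in neurons. All 8 listed names were in the table, only miR-9-5p and miR-128-3p were tested, and neither was called. The defining neuronal miRNA, miR-124-3p, had 22 counts in all, 6 in DMSO and 16 in 27HC libraries. miR-137-3p had 1, with 27HC. Other scarce names had more counts in DMSO libraries: miR-9-3p had 4 with DMSO and 2 with 27HC, miR-138-5p 13 and 9, and miR-218-5p 16 and 10. In mean CPM, miR-138-5p was at 8.42 with DMSO and 7.62 with 27HC, and miR-218-5p at 7.21 and 8.53. miR-153-3p had 176 counts, 50 in DMSO and 126 in 27HC libraries, and did not pass the filter. It stood at 30.2 ± 33.4 CPM with DMSO (3.33 to 103.5) and at 79.9 ± 89.9 CPM with 27HC (8.14 to 262.6), so that the groups overlapped. In the edgeR fit of all names with a count, in which 0.59% were called higher, its log2 fold change was 1.49 (SE 0.44, adjusted p 0.0460). That fit keeps the 1456 names left out by the filter. It gave miR-132-3p a smaller SE than the filtered fit did, 0.35 against 0.43. A value this close to the threshold is therefore to be read with caution. The summed level of the list ranged from 1122 to 1652 CPM with DMSO and from 1418 to 1703 CPM with 27HC, with miR-128-3p, also common outside neurons, at 1103 ± 211 and 1148 ± 141 CPM.

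Markers of other cells that a bone marrow preparation can hold were also counted, and calls among them are to be read against the 12.6% of all tested names that were called. Summed erythroid miRNAs (miR-451a, miR-144-3p and miR-486a-5p) ran from 485 to 1043 CPM with DMSO and from 724 to 1096 CPM with 27HC, and the 1 tested was not called. Summed endothelial and stromal miRNAs (miR-126a-3p, miR-143-3p, miR-145a-5p and miR-199a-3p) ran from 758 to 1695 and from 699.7 to 1734 CPM, and 0 of the 3 tested by edgeR were called. Of the lymphoid names, miR-150-5p was called lower (log2 fold change −0.97, SE 0.24, edgeR adjusted p 0.0134) and miR-181a-5p was not. Among the 3 neutrophil and blood cell names, miR-142a-3p and miR-142a-5p were called lower. Their part in the level of miR-132-3p was not tested.

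**Figure D5:**
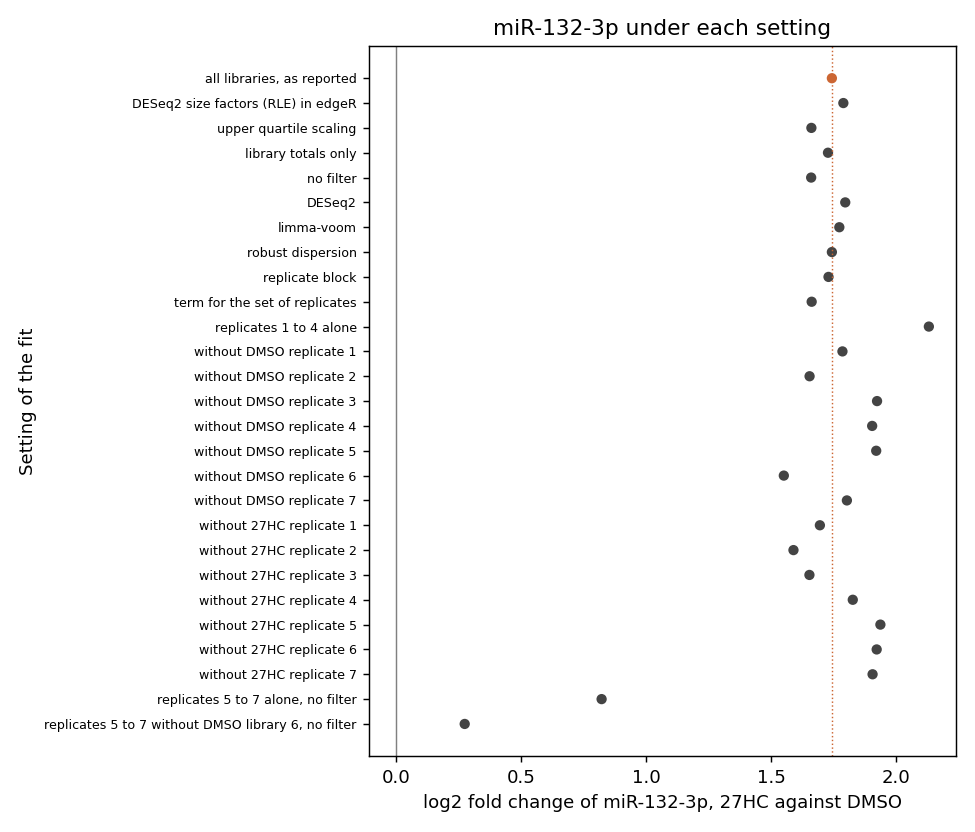
Log2 fold change of miR-132-3p (horizontal) under each setting of the fit (vertical), with the dotted line at the value reported, 1.74. Every value is above 0, and the lowest, 0.82 and 0.27, are those of replicates 5 to 7 with and without DMSO replicate 6. All settings reuse the counts by which miR-132-3p was chosen.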

How the data were processed

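The authors deposited whole-number counts per mature miRNA name and library. RNA extraction (miRNeasy Micro) and library preparation (QIAseq miRNA) used Qiagen kits, per the labels' protocols. The submitters' processing notes name R 4.1.2, edgeR, limma and the build GRCm39 (mm39). The aligner, the rule for reads that match several names and the use of molecular identifiers are not given in the sources used here. Totals ran from 112914 to 871189 counts. On scaled sizes, 3 counts equal from 4.06 CPM in DMSO replicate 3 to 24.4 CPM in 27HC replicate 7. All 1695 names and 14 libraries were matched to labels.

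27HC was compared with DMSO in edgeR 4.0.16 (R 4.3.3) by a quasi-likelihood fit with treatment alone, TMM scaling and filterByExpr (minimum count 10, minimum total 15), which left 239 names. p-values were adjusted by Benjamini-Hochberg over all tested names. Members left out by the filter were fitted with all names that had a count. miR-212-3p was also tested by exact permutation on log2 CPM (prior count 2). Each standard error is the absolute fold change divided by the square root of F. On simulated counts with 4-fold changes, the fit called all 37 changed names left after filtering, with 1 unchanged name. The simulation gave every name the same dispersion, lower than that of miR-132-3p, and no difference between sets of replicates. It does not show how the fit performs on a name as variable as miR-132-3p. Coordinates are from GRCm38, which is not the build in the notes. The members, the lists, the split into replicates 1 to 4 and 5 to 7 and the tests were chosen with earlier results of these data known. Named miRNAs are the members, the 5 most similar profiles, and list members that were called or had the highest or lowest fold change, with further list members named as markers or beside these. Alternatives covered scaling, filter, tool, dispersion, covariates, prior count and libraries left out.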

Additional observations from a re-analysis of the deposited data

Results flagged for a closer look

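Of 20 sets of libraries examined, over totals, members and the 5 most similar names, 3 held a library far from the others, where chance gives about 1 in 20. On the log2 scale, miR-132-3p in DMSO replicate 6 stood at 3.70, from 1 count, apart from the other 6 DMSO libraries, and the log2 fold change was 1.55 when it was left out. The level of miR-212-3p in DMSO replicate 2 was 10.0 CPM, from 3 counts, and it was 0 in the other 6 DMSO libraries. DMSO replicate 3 had the largest total, 871189 counts, and without it the log2 fold change of miR-132-3p was 1.92.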

How the results depend on the processing

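The log2 fold change of miR-132-3p was above 0 under all 26 alternatives. As these reuse the counts by which miR-132-3p was chosen, the shared sign is a description only. The fold change ran from 1.55 to 1.94 when 1 library was left out and was 2.13 in replicates 1 to 4. It was lower in replicates 5 to 7 (0.82 without the filter, and 0.27 without DMSO replicate 6 as well), which were fits added after the data were seen. A mean count of at least 100 left miR-132-3p out. The number of names called, 30, was 12 in replicates 5 to 7 alone, on fewer libraries and fewer names, and 21 to 34 when 1 library was left out. The difference in miR-212-3p, 0.076, changed sign in replicates 1 to 4 (−0.13), without 27HC replicate 1 (−0.00076) and without 27HC replicate 5 (−0.058), and ran up to 0.25 when 1 library was left out. The test on it could not pass its threshold in any of these, on counts in 3 libraries or fewer. The 3 scarce members have no fold change to compare, since both groups stood at or under 3 counts. The names most like miR-132-3p were the same 5 on library totals.

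With the replicate number as a block, 37 names were called and the log2 fold change of miR-132-3p was 1.73. Deviations of libraries with the same number correlated from 0.069 to 0.60, over 0.1 for 6 of the 7 numbers, against a median of −0.096 for other numbers, and 6 of the 14 libraries correlated best with their own number. Libraries with the same number always fall in the same set of replicates, and the gap between the sets was left in these deviations. Pairing and set therefore cannot be told apart by these correlations. The numbers were not taken as pairs because 1 of the 7 fell short of the 0.1 required of all, so pairing is neither shown nor excluded. Depth limits the scarce members: 3 counts correspond to 24.4 CPM in 27HC replicate 7, the library with the smallest scaled size.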
